A study of Mus musculus with 4 samples.

Results

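The genes described here are 32 genes of the interferon-gamma response, with the large GTPases that this cytokine induces at their core, out of 32285 genes in the count matrices. They were given as a list: 4 genes of the receptor and its kinases (Ifngr1, Ifngr2, Jak1, Jak2), 3 transcription regulators (Irf1, Irf8, Ciita), 2 feedback inhibitors (Socs1, Socs3), 8 guanylate-binding proteins (Gbp2 to Gbp9), 7 immunity-related GTPases (Iigp1, Irgm1, Irgm2, Igtp, Ifi47, Tgtp1, Tgtp2), 2 serpins (Serpina3g, Serpina3f) and 6 enzymes and surface proteins (Ido1, Icam1, Nampt, Ubd, Lap3, Upp1). All 32 are rows of both RNA matrices. No measured value was used to choose a gene, but the list was drawn up with earlier results of these data known.

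Interferon-gamma is a cytokine of activated T and NK cells that binds a receptor of the chains IFNGR1 and IFNGR2, and the kinases JAK1 and JAK2 on these chains start the signal. Promoters with gamma-activated sites respond first, among them that of Irf1, whose product drives further genes through interferon-stimulated response elements. The guanylate-binding proteins (GBPs) and immunity-related GTPases (IRGs) are made in this response and attack the membranes of vacuoles that hold intracellular microbes, while SOCS1 and SOCS3 damp the kinases. In tumours the same response raises antigen presentation and T cell attracting chemokines, and type I interferons switch on an overlapping set of genes.

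The data are 1 single-cell RNA library (10x Genomics 5′ chemistry) for each of 2 groups of mice, each with a matching T cell receptor library. The hosts of both groups were wild-type Thy1.2+ B6 mice with a chimeric tumor, and both groups received Thy1.1+ Pmel-1 T cells, transgenic CD8 T cells that recognise a melanocyte antigen, together with an adjuvant. The transferred cells were Tc1 cells, the interferon-gamma type of CD8 T cell, in the first group and Tc9 cells, the interleukin-9 type, in the second, and the libraries are called Tc1 and Tc9 after them. Tumours of 3 mice per group were pooled on day 30 after tumour inoculation, tumour-infiltrating CD4 T cells were enriched and sorted, and the age of the mice is not given in the sources used here. No untreated group was analysed here. With 1 pooled library per group there was no test between groups, and every interval below is an exact 95% interval of counting error only, which leaves out the spread between mice.

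Barcodes were kept from 500 genes up if mitochondrial genes gave no more than 10% of their UMIs (unique molecular identifiers); they numbered 11933 of 13406 in Tc1 and 8204 of 8449 in Tc9, and 127 barcode sequences were kept in both libraries. Cells were gated by marker transcripts that include no gene of the list, and levels are CPM, a gene's counts scaled to the same total of UMIs per gate. The CD4 gate, with Cd3 and Cd4 but no Cd8 and no Foxp3 transcript, held 887 barcodes in Tc1 and 3614 in Tc9, and the Foxp3 gate, the same with a Foxp3 transcript as in regulatory T cells, held 103 and 596. Against the label of sorted CD4 T cells, the CD8 gate held 1682 and 321 barcodes, the macrophage gate 3355 and 49, the NK gate 21 and 51, the stromal gate 70 and 89, the dendritic gate 51 and 17 and the melanoma gate 256 and 1. No gate took 46.2% of kept barcodes in Tc1 and 42.2% in Tc9. The gates with at least 20 barcodes in both libraries were compared, and for dendritic and melanoma cells the values are given without a ratio. Transcripts of other cells were far more abundant in the Tc1 than in the Tc9 CD4 gate: Hbb-bs, a haemoglobin gene, stood at 3220 against 0.0917 CPM, the macrophage gene Lyz2 at 150.04 against 4.17 CPM, and the 7 macrophage markers together at 93.3 against 3.76 CPM.

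Promoters of the list were read first, since most GTPases were lower in the Tc9 library in CD4 and CD8 T cells (described further on) and the response elements of this pathway lie close to start sites. RefSeq (GRCm38.p6, the build of the count files) gave windows of 300 bases, from 250 before to 50 after the start site, for 25 of the 32 genes. Both strands were searched for TTCNNNGAA, the core of the gamma-activated site, and for GAAA, any 2 bases and GAAA again, the core of the interferon-stimulated response element; overlapping matches were each counted. Among all 32851 windows of that length, 8.3% held the first core and 3.44% the second. Of the 25 genes, 12 held the first, 10 the second and 16 at least 1 of them. The share of all windows with at least 1 core was not computed, so the count of 16 has no share beside it. Of the 10 GTPase genes with a window 6 held the first core and 9 the second, Ifi47 holding neither. Of the 4 receptor and kinase genes 0 held either, and 4 genes are too few to set against the low shares of all windows. These shares count single windows, and the counts here count genes. A match describes letters and shows no binding, and counts for genes with several start sites (Irf1, Irf8, Gbp3, Serpina3f and Upp1) cover all their windows.

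The 180 bases before the start site are shown for 4 IRGs, 2 GBPs and 2 regulators, with matches in capitals. The first 4 carry both cores side by side, 2 bases apart:
Igtp (chr11:58199376-58199555, plus strand): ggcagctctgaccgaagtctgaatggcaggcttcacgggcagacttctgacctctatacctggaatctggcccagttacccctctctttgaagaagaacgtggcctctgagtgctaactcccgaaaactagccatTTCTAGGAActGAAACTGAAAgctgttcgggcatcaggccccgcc
Irgm2 (chr11:58214797-58214976, plus strand): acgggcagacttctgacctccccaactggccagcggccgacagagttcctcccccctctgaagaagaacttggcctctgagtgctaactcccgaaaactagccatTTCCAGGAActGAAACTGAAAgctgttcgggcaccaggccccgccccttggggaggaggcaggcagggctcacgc
Tgtp1 (chr11:48992247-48992426, minus strand): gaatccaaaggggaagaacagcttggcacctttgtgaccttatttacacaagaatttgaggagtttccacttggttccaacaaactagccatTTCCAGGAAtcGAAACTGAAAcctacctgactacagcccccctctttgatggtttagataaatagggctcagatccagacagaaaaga
Tgtp2 (chr11:49064213-49064392, minus strand): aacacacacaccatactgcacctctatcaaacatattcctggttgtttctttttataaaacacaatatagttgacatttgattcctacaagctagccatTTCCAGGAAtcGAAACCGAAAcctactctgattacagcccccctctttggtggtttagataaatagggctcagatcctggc
The GBPs, the early regulator Irf1 and the feedback inhibitor Socs1 differ in which core they hold:
Gbp2 (chr3:142620483-142620662, plus strand): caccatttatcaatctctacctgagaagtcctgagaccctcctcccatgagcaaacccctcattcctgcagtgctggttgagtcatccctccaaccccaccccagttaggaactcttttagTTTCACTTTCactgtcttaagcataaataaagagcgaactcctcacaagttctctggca
Gbp5 (chr3:142496754-142496933, plus strand): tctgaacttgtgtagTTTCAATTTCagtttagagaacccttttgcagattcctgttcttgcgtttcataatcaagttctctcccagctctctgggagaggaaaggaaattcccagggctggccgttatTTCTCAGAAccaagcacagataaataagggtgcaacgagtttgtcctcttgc
Irf1 (chr11:53769834-53770013, plus strand): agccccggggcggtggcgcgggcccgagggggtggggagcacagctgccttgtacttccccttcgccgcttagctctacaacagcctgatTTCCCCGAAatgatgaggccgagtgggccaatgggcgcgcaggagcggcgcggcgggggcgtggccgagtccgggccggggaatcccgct
Socs1 (chr16:10785537-10785716, minus strand): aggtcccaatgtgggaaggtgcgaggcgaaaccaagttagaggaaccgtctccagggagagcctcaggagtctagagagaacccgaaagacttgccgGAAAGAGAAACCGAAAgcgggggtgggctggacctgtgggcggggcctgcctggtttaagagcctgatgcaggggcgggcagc
Igtp and Irgm2, neighbours on chromosome 11, were identical at 247 of 336 aligned columns of their windows (73.5%), and the copies Tgtp1 and Tgtp2, also on chromosome 11, at 224 of 331 (67.7%). The windows of Serpina3f and Serpina3g matched at 42.5% and those of Igtp and Gbp2, from different families, at 49.1%. Gbp2 and Socs1 held only the response element core in the stretch shown and Irf1 only the gamma-activated core, while Gbp5 held both, farther apart. Tgtp1 and Tgtp2 are paralogs, as are Serpina3g and Serpina3f; their transcripts were not compared here, and how the counting split reads within each pair is uncertain.

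The GTPases were read by cell type as a sum, from which single genes departed. In Tc1 Gbp2 was highest in dendritic cells (149 CPM, against 51.3 CPM in the Foxp3 gate), as was Gbp5 (71.3 against 27.4 CPM). Irf1, which is not a GTPase, was highest in the Foxp3 gate of Tc9 (281 CPM). Among whole gates the Foxp3+ CD4 T cells had the highest summed level of the 15 GTPases in both libraries (the endothelial part of the stromal gate, given further on, was higher in Tc9), 1114 CPM (1044 to 1188) in Tc1 and 953 CPM (926 to 982) in Tc9. In Tc1 the CD4 gate followed at 781 CPM (752 to 811), then CD8 at 728 CPM (713 to 744), stromal at 539 CPM (498 to 581), dendritic at 519 CPM (465 to 578), macrophage at 462 CPM (454 to 471), NK at 424 CPM (319 to 552) and melanoma at 235 CPM (226 to 244). The intervals of the stromal, dendritic and NK levels overlap, as do those of the dendritic, NK and macrophage levels. In Tc9 the order differed: stromal cells had 492 CPM (442 to 546), macrophages 460.2 CPM (337 to 614), the CD4 gate 412 CPM (403 to 420), CD8 cells 310.3 CPM (289.8 to 332), NK cells 285 CPM (236 to 341) and the 17 dendritic barcodes 120.2 CPM (67.3 to 198). The macrophage interval takes in the stromal and CD4 levels, and the CD8 and NK intervals overlap. The Tc9 CD4 gate was thus below the Tc9 stromal gate, while the Tc1 CD4 gate was above the Tc1 stromal gate. Barcodes under 500 genes had 192 CPM of GTPases in Tc1 and 176 CPM in Tc9, against the 235 CPM (226 to 244) of the Tc1 melanoma gate. The genes used further on for the first estimate of free RNA stood at 307753 CPM in these Tc1 barcodes. In those of Tc9 they stood at 53723.6 CPM. They lower every other CPM value of these barcodes, more so in Tc1. What cells these barcodes hold was not examined.

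**Figure D1:**
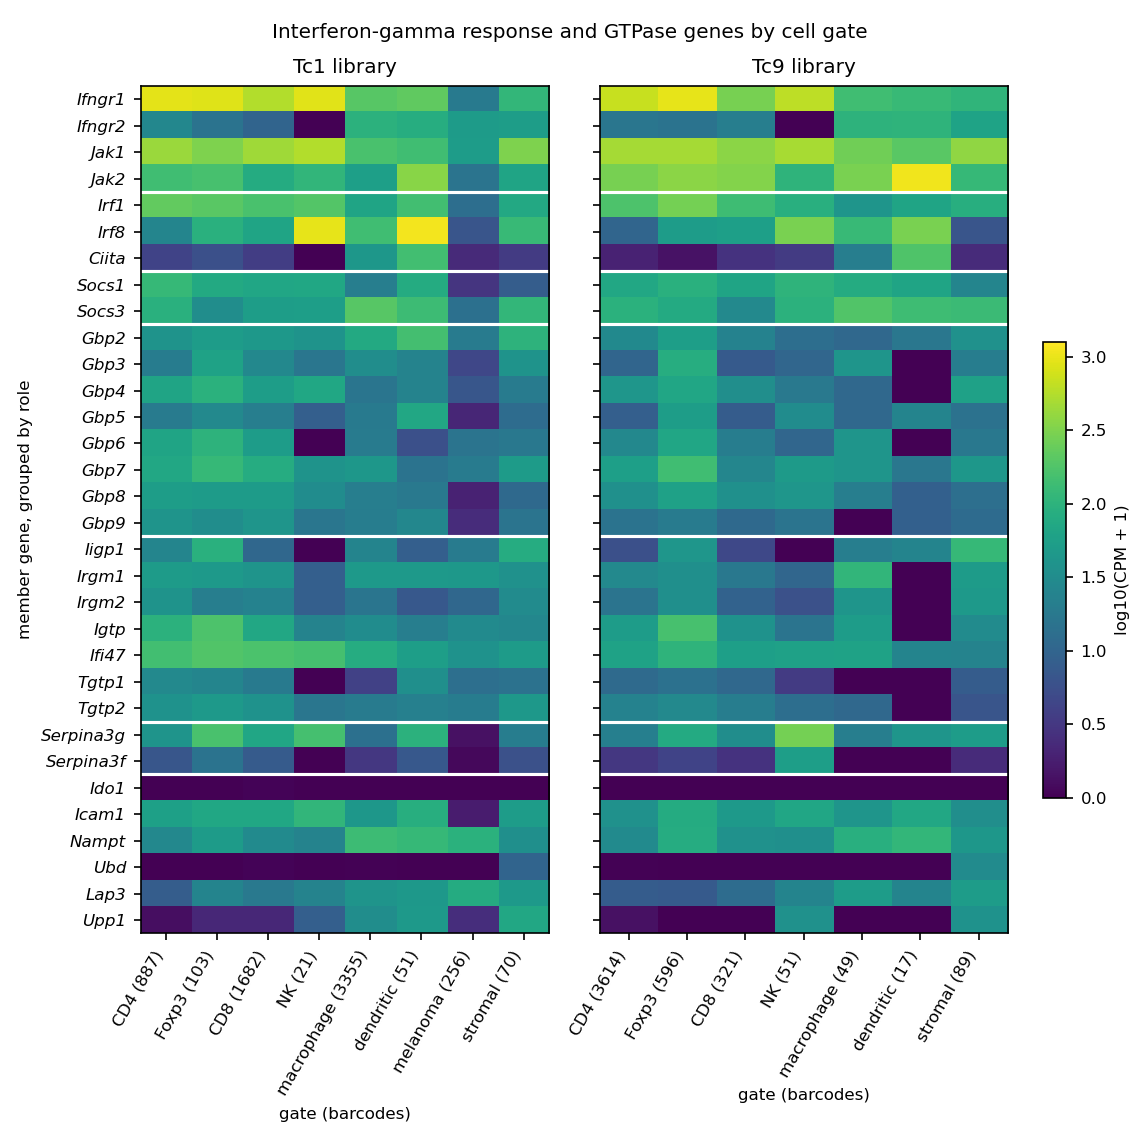
Level of each of the 32 genes (rows, grouped by role, white lines between roles) in each cell gate (columns, with the number of barcodes) of the Tc1 and the Tc9 library, as log10(CPM + 1). Ifngr1 and Jak1 are bright in the T cell and NK columns, Irf8 stands at 1121 CPM in Tc1 dendritic cells, Ubd is near 0 outside the stromal gate and Ido1 is near 0 throughout; the melanoma gate of Tc9, with 1 barcode, is left out.

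**Figure D2:**
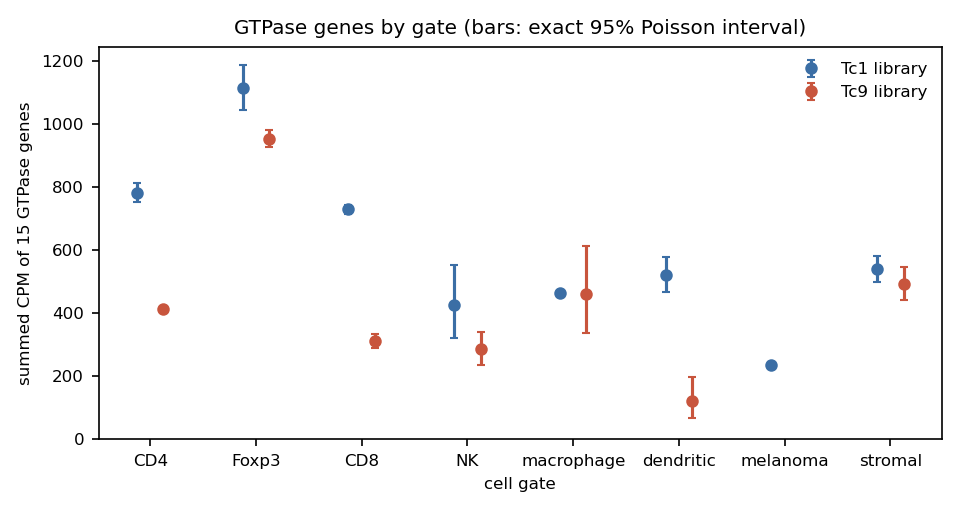
Summed CPM of the 15 GTPase genes in each gate (x axis) of the Tc1 (blue) and Tc9 (red) libraries, with exact 95% Poisson intervals of counting error; the melanoma gate of Tc9 is left out. The Foxp3 gate is highest in both libraries, and the CD4 and CD8 points lie at 781 and 728 CPM in Tc1 against 412 and 310.3 CPM in Tc9.

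The receptor chains were ordered differently over the cell types. Ifngr1, the ligand-binding chain, stood at 943 CPM in the CD4, 887 CPM in the Foxp3, 910 CPM in the NK and 547 CPM in the CD8 gate of Tc1, and at 681, 964, 613 and 294 CPM in those of Tc9. In macrophages it had 195 CPM in Tc1 and 140 CPM in Tc9, in stromal cells 111 and 107 CPM, and in Tc1 melanoma cells 18.1 CPM. Ifngr2, the signalling chain, ran the other way, with 96.8 and 100.04 CPM in macrophages, 51.8 and 61 CPM in stromal cells and 49 CPM in Tc1 melanoma cells, against 25.9 and 15.5 CPM in the CD4 gate and no transcript in the NK gate of either library. Dendritic cells had 83.7 CPM of Ifngr2 in Tc1 (62.9 to 109) and 104 CPM in Tc9 (55.5 to 178), with intervals that overlap those of macrophages. The upper counting limit of Ifngr2 in the NK gate was 28.4 CPM in Tc1, above the CD4 level there, and 8.9 CPM in Tc9. Ifngr1 was thus highest in lymphocytes and Ifngr2 in macrophages and dendritic cells. The kinase gene Jak1 lay between 318 and 547 CPM in the T, NK and stromal gates of both libraries and at 50.9 CPM in melanoma cells.

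Several other members had their highest levels in other cell types. Irf8, a transcription factor of myeloid and dendritic cells, had 1121 CPM in dendritic and 956 CPM in NK cells of Tc1, against 139 CPM in macrophages and 25.1 CPM in the CD4 gate. In Tc9 the dendritic and NK levels were 296 and 297 CPM, and 43.2% of the dendritic UMIs sat in 1 barcode. Ciita, the master regulator of MHC class II, was a dendritic gene with 143 CPM in Tc1 and 176 CPM in Tc9, followed by macrophages with 42.9 and 20.01 CPM. Socs3, an inhibitor of cytokine receptors of the gp130 family, peaked in macrophages at 194 and 180.07 CPM, whereas Socs1, the chief inhibitor of JAK signalling, was highest in the Tc1 CD4 gate at 118 CPM and stood at 20.3 CPM in Tc1 macrophages.

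Nampt, the enzyme that salvages nicotinamide to NAD, had 133 CPM in Tc1 macrophages, 118 CPM in dendritic cells and 94.5 CPM in melanoma cells, above the 26.8 CPM of the CD4 gate. Lap3, a leucine aminopeptidase that trims peptides, was the one member highest in melanoma cells (79.4 CPM against 47 CPM in Tc1 stromal cells). Ubd, which encodes the ubiquitin-like protein FAT10, was found in stromal cells (8.91 CPM in Tc1, 30.5 CPM in Tc9) and at no more than 0.0823 CPM in any other gate. Upp1, uridine phosphorylase, had 71.3 and 37.4 CPM in stromal cells and 0.288 and 0.367 CPM in the CD4 gate. Its stromal interval (57.2 to 87.8 CPM) overlaps that of dendritic cells in Tc1 (45 CPM, 30.1 to 64.6). In Tc9 NK cells were nearly level with stromal cells, at 36.2 CPM (20.3 to 59.7). Ido1, which degrades tryptophan, gave 1 UMI in all gates of both libraries. Icam1, an adhesion molecule, ranged from 42.3 to 108 CPM in the Tc1 gates other than melanoma, where it had 0.726 CPM. Melanoma cells had the lowest sum of the 32 genes among the Tc1 gates, 579 CPM (565 to 593), with the IRG Irgm1 at 44 CPM and Ifi47 at 37.3 CPM, of which 36.7% sat in 1 barcode.

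In the CD4 gate most members were lower in Tc9 than in Tc1. Igtp, an IRG that works at vacuole membranes, was at 96.8 CPM in the Tc1 and 51.4 CPM in the Tc9 library, which gives -0.91 as the log2 of Tc9 over Tc1 (-1.09 to -0.73). Ifi47 had 143 and 60.7 CPM (-1.24, -1.39 to -1.09), Irgm2 had 38.3 and 14.7 CPM (-1.38, -1.68 to -1.08), and Iigp1, the effector IRG, had 25.1 and 4.77 CPM (-2.39, -2.82 to -1.97). Among the GBPs, Gbp6 had 63.1 and 26.9 CPM (-1.23, -1.46 to -1.0), Gbp9 had 39.2 and 14.2 CPM (-1.46, -1.76 to -1.16) and Gbp5, which takes part in inflammasome activation, had 18.7 and 7.75 CPM (-1.27, -1.69 to -0.84). Every one of these intervals lies below 0. A gene was counted as higher or lower at 1.5-fold or more, among genes with a mean of at least 10 CPM and at least 20 UMIs. Of the 32 members 26 met this level filter and 6 did not; 17 were lower in Tc9, where 16.5% of all 7673 genes were, 1 was higher, where 5.8% of all genes were, and 8 lay between. The median log2 ratio of the 26 was -0.73 and that of all genes -0.13.

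By role, all 7 IRGs were lower, with a summed level of 416 CPM in Tc1 and 193 CPM in Tc9 (-1.11, -1.20 to -1.02). Of the 8 GBPs 5 were lower, and Gbp2 (38.3 and 28.3 CPM), Gbp7 (70.6 and 55.4 CPM) and Gbp8 (52.4 and 35.3 CPM) lay between the limits; their sum was 365 and 219 CPM (-0.74). Together the 15 GTPases had 781 CPM in Tc1 and 412 CPM in Tc9 (-0.92, -0.99 to -0.86). Irf1 had 228 and 169 CPM (-0.43), within 1.5-fold, while Irf8 had 25.1 and 9.22 CPM (-1.44) in a gate where its level is low. Socs1 was lower (118 and 71.6 CPM, -0.72) and Socs3 was not (91.3 and 94.04 CPM, 0.04). Serpina3g, a serpin of activated T cells, was at 39.2 and 20.9 CPM (-0.91), and Icam1 at 56.7 and 36.5 CPM (-0.64).

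Upstream of these genes the picture was different. Ifngr1 had 943 and 681 CPM (-0.47), Ifngr2 25.9 and 15.5 CPM (-0.74), Jak1 424 and 476 CPM (0.17), and Jak2, the kinase bound to IFNGR2, 141 and 292 CPM (1.05, 0.92 to 1.18). Jak2 was the 1 member higher in Tc9, and the sum of the receptor and kinase genes was nearly level, 1534 and 1466 CPM (-0.07). The sum of all 32 members, which holds these 4 genes, differed less than the GTPases (2916 and 2319 CPM, -0.33). Ifng itself, the gene of the cytokine, had 107 and 77.9 CPM (-0.46) in this gate. TMM scaling moved all ratios of this gate up by 0.27, which left 11 members lower and 1 higher, and put the GTPases at -0.65 and the sum of 32 at -0.059. The shares of all genes after this scaling were not computed. The Tc1 gate also had far higher haemoglobin and macrophage transcripts, and their part in these differences was not tested. Without the 266 and 3 barcodes that held a haemoglobin UMI the GTPase ratio was -0.91, and with no UMI of any other cell type's markers allowed it was -1.03.

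**Figure D3:**
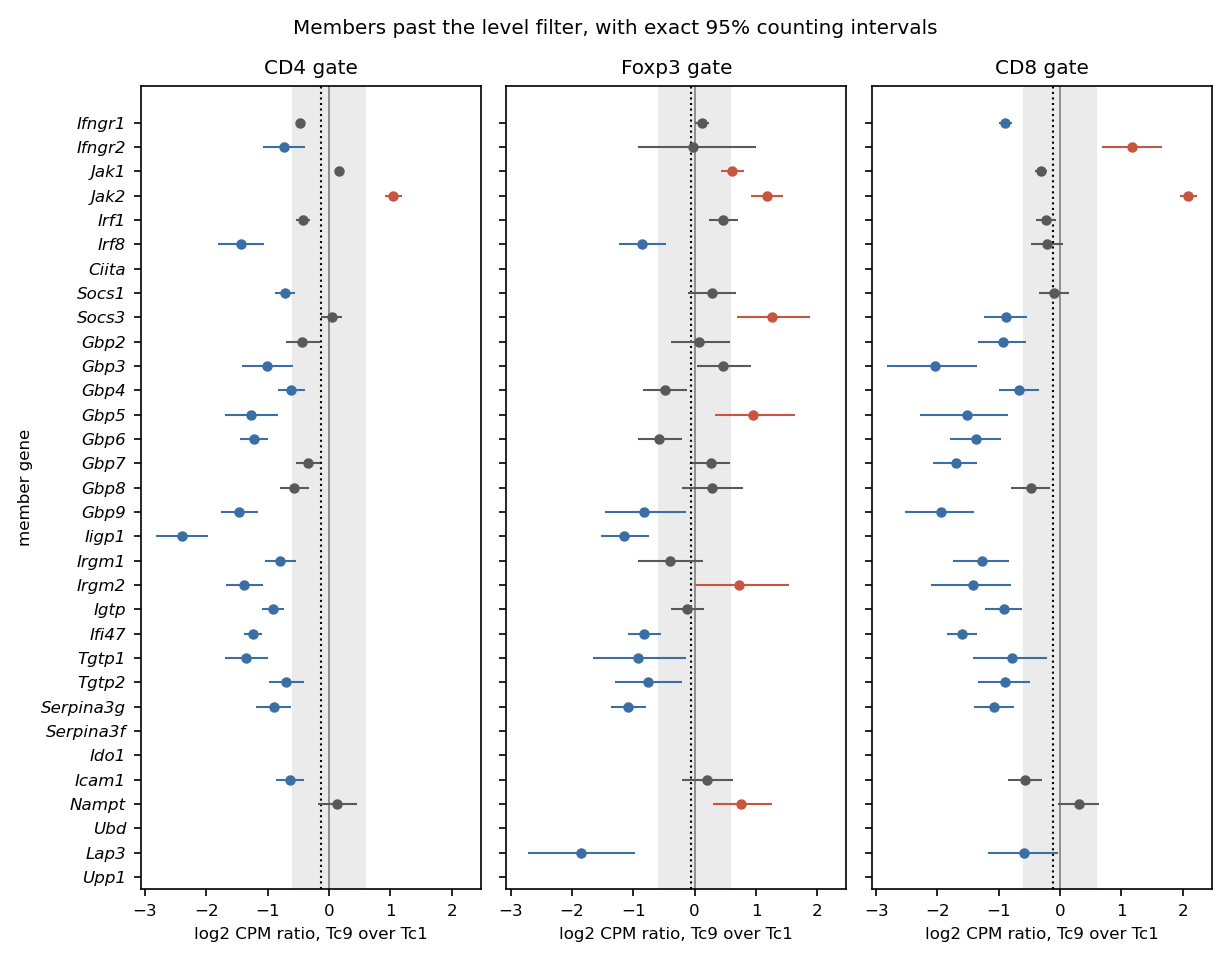
Log2 ratio of CPM, Tc9 over Tc1 (x axis), of each member past the level filter (rows, by role) in the CD4, Foxp3 and CD8 gates, with exact 95% counting intervals; blue points are lower and red points higher by at least 1.5-fold, the grey band marks smaller differences and the dotted line the median of all genes. In the CD4 and CD8 panels 17 points each are blue, in the Foxp3 panel 8 are blue and 6 red, and Jak2 lies to the right in all 3.

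The other genes of the pathway, 31 genes such as Stat2, Irf9 and the immunoproteasome, moved less than the GTPases in the CD4 gate. Of 28 past the filter 9 were lower (16.5% of all genes), 1 was higher (5.8%) and the median was -0.38. The largest ratios, by size, were those of Xaf1, a pro-apoptotic interferon-induced gene (57.3 and 21.6 CPM, -1.41), Casp4, the caspase that senses cytosolic lipopolysaccharide and the 1 gene higher (32.5 and 75.1 CPM, 1.21), Psmb9, an immunoproteasome subunit (275 and 141 CPM, -0.96), and Irf9 (57.6 and 30.3 CPM, -0.93). Genes that respond chiefly to type I interferon differed more: 16 of 17 past the filter were lower and the median was -1.35. Rsad2 had 22.5 and 3.81 CPM (-2.56), Rtp4 48.4 and 8.71 CPM (-2.47), Cmpk2 18.7 and 4.95 CPM (-1.92) and Usp18 17.3 and 4.59 CPM (-1.91). In the Foxp3 gate 8 of 30 pathway genes were lower and 7 higher (median -0.10; 23.1% and 18.7% of all genes), and 9 of 14 type I genes were lower (median -1.12). In the CD8 gate 15 of 29 pathway genes were lower and 2 higher (median -0.60; 22.6% and 13% of all genes), and 14 of 15 type I genes were lower (median -2.31). Both lists were chosen with results of these data known.

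Foxp3+ CD4 T cells followed the CD4 gate for some members and not for others. Of 27 members past the filter 8 were lower in Tc9, where 23.1% of all genes were, 6 were higher, where 18.7% of all genes were, and 13 lay between; the median was 0.08 and that of all genes -0.06. Gbp5 was higher in Tc9 (27.4 and 52.9 CPM, 0.95, 0.33 to 1.63), as were Irgm2 (20.3 and 33.6 CPM, 0.73, 0.0025 to 1.54), Nampt (48.9 and 82.8 CPM, 0.76), Socs3 (32.2 and 77.1 CPM, 1.26), Jak1 (318 and 486 CPM, 0.61) and Jak2 (159 and 360 CPM, 1.18). For Irgm2 this rests on 17 UMIs in Tc1, and the lower bound of its interval is close to 0. The lower members were 4 IRGs, namely Iigp1 (93.02 and 42.1 CPM, -1.15), Ifi47 (181 and 102 CPM, -0.83), Tgtp1 (25.04 and 13.2 CPM, -0.93) and Tgtp2 (46.5 and 27.4 CPM, -0.76), and Gbp9, Irf8, Serpina3g (163 and 77.3 CPM, -1.08) and Lap3 (23.8 and 6.59 CPM, -1.86). Of these 8 lower members 2 kept their direction in every setting that gave a value: Gbp9, Iigp1, Ifi47, Tgtp2, Irf8 and Serpina3g lay above 0 with free RNA subtracted by the first of 2 estimates (below 0 by the other, from Lyz2 and Apoe), and Tgtp2 also with no UMI of an excluded marker (0.41). The first estimate took 89.1% of the Tc9 and 13.1% of the Tc1 Foxp3 counts for free RNA. Its profile was the sum of all kept barcodes, T cells included, so the turned signs may not reflect free RNA. The GBPs as a sum were level, with 534 and 546 CPM (0.03, -0.11 to 0.18), the IRGs were at 579.6 and 408 CPM (-0.51), and the 15 GTPases at 1114 and 953 CPM (-0.22, -0.33 to -0.12). Igtp, a highly counted IRG, had 168 and 155 CPM (-0.12, -0.38 to 0.15). Of 26 members past the filter in both gates 24 had a higher ratio in the Foxp3 than in the CD4 gate, by a median of 0.64. The same count over all genes was not made, so this one has no share to be read against. The median ratio of all genes was -0.06 in the Foxp3 and -0.13 in the CD4 gate, and the difference between the gates was not tested.

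Set against the CD4 gate of the same library, Foxp3+ cells had a higher sum of the GTPases, with a log2 ratio of Foxp3 over CD4 of 0.51 in Tc1 and 1.21 in Tc9. Of the 15 GTPases 5 were higher and 1 lower by 1.5-fold in Tc1, and 11 higher and 0 lower in Tc9. In Tc1 10 of 28 members past the filter were higher in the Foxp3 gate (18.9% of all genes) and 4 were lower (14.1%), with a median of 0.34 beside 0.08 for all genes. In Tc9 16 of 26 were higher (10.9%) and 0 lower (3.28%), with a median of 0.75 beside 0.14. Gbp3 had 19.01 CPM in the CD4 and 60.8 CPM in the Foxp3 gate of Tc1, and 9.4 and 84.1 CPM in those of Tc9; Gbp5 had 18.7 and 27.4 CPM, and 7.75 and 52.9 CPM. Iigp1 stood at 25.1 and 93.02 CPM in the CD4 and Foxp3 gates of Tc1 and at 4.77 and 42.1 CPM in those of Tc9, and Serpina3g at 39.2 and 163 CPM and at 20.9 and 77.3 CPM. The 4 members lower in Tc1 were Irgm2, Socs1, Socs3 and Ifngr2, and Gbp8, Gbp9, Irgm1 and Tgtp1 lay below their CD4 level by less than 1.5-fold.

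In the CD8 gate most GTPases were lower in Tc9. Of 26 members past the filter 17 were lower in Tc9 (22.6% of all genes), 2 were higher (13%) and 7 lay between, with a median of -0.89 beside -0.12 for all genes. Ifi47 had 166 and 54.8 CPM (-1.60, -1.85 to -1.36), Gbp7 82.02 and 25.2 CPM (-1.70, -2.08 to -1.35), Gbp9 40.6 and 10.6 CPM (-1.94) and Gbp3 27.1 and 6.57 CPM (-2.05). Of the 14 GTPases past the filter 13 were lower, Gbp8 (48.9 and 35.04 CPM, -0.48) being the exception, and the sum of all 15 was 728 CPM in Tc1 and 310.3 CPM in Tc9 (-1.23, -1.33 to -1.13). Iigp1, with 9.95 and 3.65 CPM, did not pass. Jak2 was higher in Tc9, with 78.9 and 336 CPM (2.09, 1.96 to 2.22), and so was Ifngr2, with 9.05 and 20.4 CPM (1.18), whereas Ifngr1 was lower (547 and 294 CPM, -0.90). Irf1, Irf8 and Socs1 lay within 1.5-fold. The CD8 gates differed in make-up: 29 of 1682 barcodes in Tc1 and 185 of 321 in Tc9 carried 1 of 2 T cell receptor beta chains found in both receptor libraries. Without these barcodes the GTPase ratio was -0.92, as in the CD4 gate, and that of the 32 genes -0.23 in place of -0.44.

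Jak2 was the member that was higher in Tc9 in most gates: besides the T cell gates it had 55.6 and 300.1 CPM in macrophages (2.43) and 63.2 and 118 CPM in stromal cells (0.90), but 108 and 104 CPM in NK cells (-0.06). Of the 30 macrophage UMIs in Tc9 36.7% sat in 1 barcode. Dendritic cells had 353 CPM of Jak2 in the Tc1 and 1082 CPM in the Tc9 library. Ifi47 was lower in Tc9 in 5 of 6 gates. Tgtp2 was lower in the 5 gates where it passed the filter, but in macrophages this rests on 1 UMI in Tc9 and was 0.89 with 1 more marker needed, and in the Foxp3 gate it turned as given above.

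The share of T cell barcodes with a GTPase UMI was lower in Tc9 too. At this depth such a share follows the level, so fewer cells with the transcripts and fewer transcripts per cell cannot be told apart. Each barcode was thinned to 2000 UMIs, and shallower barcodes were left out (62 and 66 in the CD4, 4 and 5 in the Foxp3 and 50 and 2 in the CD8 gate). At least 1 of the 15 GTPases was found in 68.7% of CD4 gate barcodes in Tc1 (65.4 to 71.9) and 45.2% in Tc9 (43.5 to 46.8), in 86.9% (78.6 to 92.8) and 74.6% (70.9 to 78.1) of the Foxp3 gate and in 71.8% (69.5 to 73.9) and 39.2% (33.8 to 44.8) of the CD8 gate. At least 3 different GTPases were found in 16.5% and 6.45% of CD4, 34.3% and 24.7% of Foxp3 and 18.8% and 5.96% of CD8 barcodes. The CD4 and CD8 intervals of the libraries do not overlap, while those of the Foxp3 gate meet for 3 GTPases and lie apart for 1. Igtp alone was found in 16.1% and 8.62% of CD4 gate barcodes after thinning (24.9% and 19.7% before). The top 10% of barcodes with the most GTPase UMIs held 37.8% of them in the Tc1 and 47.6% in the Tc9 CD4 gate. The lowest share was 17.3% in Tc1 melanoma cells (median depth 13343 UMIs, against 3381 and 5478.5 in the CD4 gates). Their summed GTPase level of 235 CPM compares with 192 CPM in Tc1 barcodes under 500 genes. The latter level is lowered by the free RNA genes, as given above. No expression is read from the melanoma share.

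**Figure D4:**
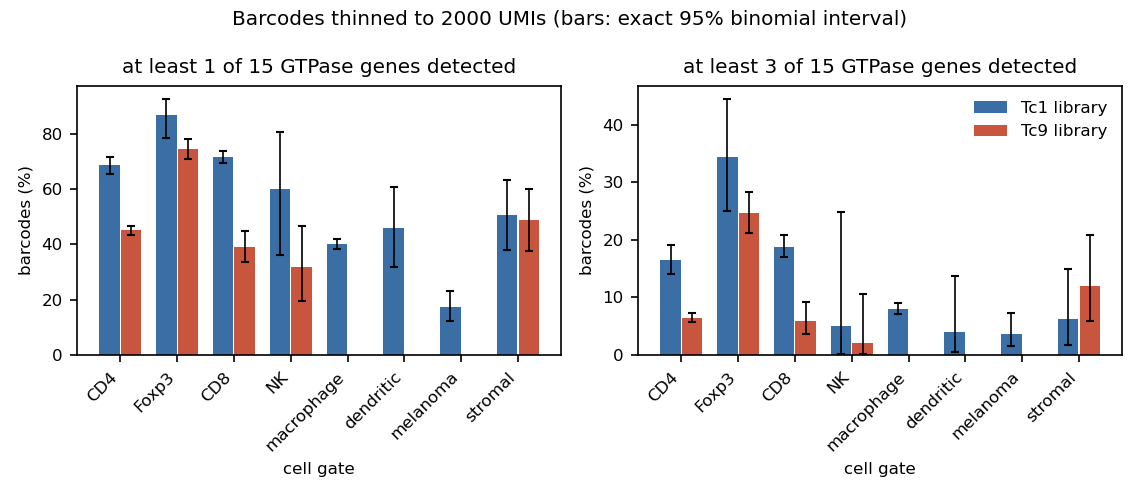
Share of barcodes (%) with at least 1 (left) or at least 3 (right) of the 15 GTPase genes after thinning to 2000 UMIs, by gate, in Tc1 (blue) and Tc9 (red), with exact 95% binomial intervals; the panels have their own scales, and gates with too few barcodes left in Tc9 show Tc1 alone. The CD4 bars stand at 68.7% and 45.2% on the left and at 16.5% and 6.45% on the right.

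Inside the CD4 gate the summed GTPases were high in barcodes with type I interferon transcripts, and in the other splits the intervals of the sums overlap. In thinned Tc1 barcodes with an Ifng UMI the GTPases stood at 841 CPM (723 to 973) and in those without at 792 CPM (747 to 840); in Tc9 the levels were 388 CPM (347 to 432) and 418 CPM (402 to 435). Barcodes with Il4, Il5 or Il13 had 811 CPM against 798 CPM in Tc1 and 428 CPM against 413 CPM in Tc9. Those with Ccr7 or Lef1, genes of naive and central memory cells, had 776 CPM against 810.1 CPM and 437 CPM against 409 CPM. Some single GTPases did differ in this last split in Tc1, but not in Tc9. In Tc1, Iigp1 had 47.8 CPM (31.2 to 70.03) with and 13.6 CPM (7.59 to 22.4) without Ccr7 or Lef1. Gbp6 had 29.4 CPM (16.8 to 47.8) against 62.4 CPM (48.5 to 79) and Gbp7 42.3 CPM (26.8 to 63.4) against 80.5 CPM (64.6 to 99.03). In Tc9 the intervals overlap for each: Iigp1 had 9.67 CPM (5.29 to 16.2) against 6.02 CPM (4.17 to 8.41). Gbp6 had 17.3 CPM (11.2 to 25.5) against 26.03 CPM (22 to 30.6). Gbp7 ran the other way, with 68.4 CPM (55.6 to 83.2) against 54.9 CPM (48.9 to 61.3). The 48 Tc1 barcodes with Ifit1, Ifit3 or Rsad2 had 2260.4 CPM (1969.7 to 2582) against 708 CPM (667 to 752), and the 64 such barcodes of Tc9 1727 CPM (1506 to 1969.8) against 390.5 CPM (376 to 405). Some members outside the GTPases differed too. In Tc9 barcodes with Il4, Il5 or Il13, Jak2 had 461 CPM (412 to 515) against 275 CPM (262 to 288) without. Ifngr1 had 527 CPM (475 to 584) against 753 CPM (732 to 775). In Tc1 the intervals of both genes overlap in this split. Socs3 in Tc1 had 156 CPM (125 to 193) with and 66 CPM (51.7 to 83) without Ccr7 or Lef1, and its Tc9 intervals overlap.

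**Figure D5:**
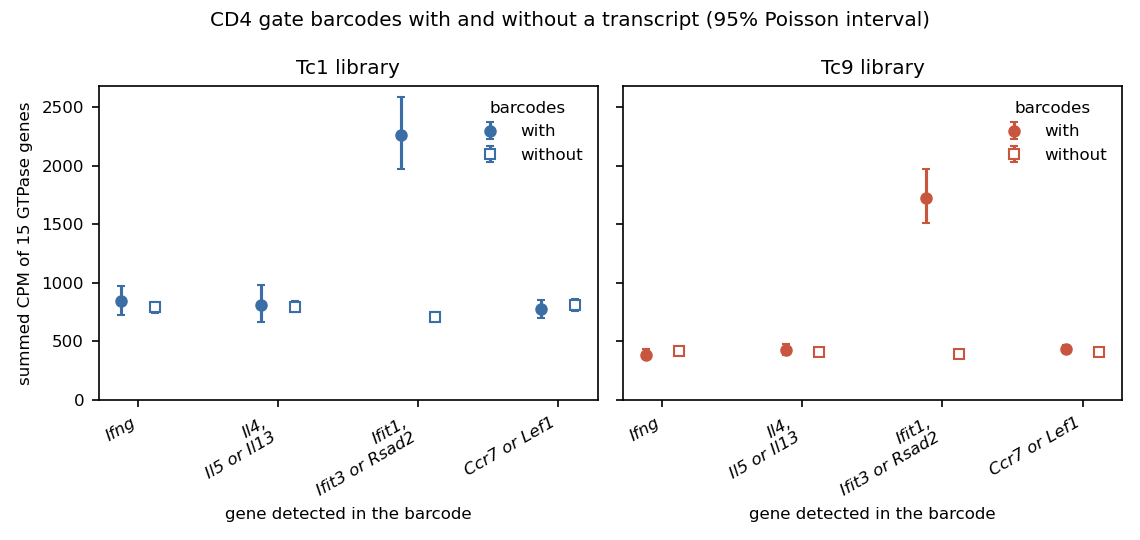
Summed CPM of the 15 GTPase genes in CD4 gate barcodes with (filled) and without (open) a transcript of the genes named on the x axis, in Tc1 (left) and Tc9 (right), with exact 95% Poisson intervals. Filled and open points lie close together except for Ifit1, Ifit3 or Rsad2, at 2260.4 against 708 CPM in Tc1 and 1727 against 390.5 CPM in Tc9.

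Macrophages had wide errors: Tc9 gave 49 of them, with a median of 1786 UMIs, and 191 UMIs of the 32 genes. Of 27 members past the filter 5 were lower (20.7% of all genes) and 8 higher (43.5%), with a median of -0.08 beside 0.39 for all genes. Irgm1, which guards cells against the effector GTPases, had 46.9 and 110.04 CPM (1.23, 0.22 to 2.08) and Socs1 20.3 and 80.03 CPM (1.98, 0.76 to 2.97), while Gbp2 had 75.4 CPM in Tc1 and 1 UMI, or 10.004 CPM, in Tc9. The GTPase sum was 462 CPM in Tc1 and 460.2 CPM in Tc9 (-0.01, -0.46 to 0.41). With TMM scaling, which moved all ratios by -0.64, 17 members were lower and 4 higher. With scaling by the median ratio 11 were lower and 5 higher. Both scalings move all other genes as well, and the shares of all genes after them were not computed. The Tc9 gate also held T cell transcripts: the Cd3 markers stood at 70.03 CPM against 15.4 CPM in Tc1 and Ifng at 60.02 CPM against 1.7 CPM, and their part in these values was not tested. In Tc1 the GTPases were higher in macrophages that had the chemokines of the pathway: those with Cxcl9 or Cxcl10 had 1241 CPM of GTPases (1158 to 1328) and those without 341 CPM (325 to 357). Gbp2 stood at 257 and 46.9 CPM and Gbp5 at 70.4 and 8.03 CPM in these macrophages. None of the 18 Tc9 macrophages deep enough for thinning had either chemokine.

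Stromal cells were a mixture whose parts differed. Of 29 members past the filter 8 were lower (23.3% of all genes) and 6 higher (27%), with a median of 0.23 beside 0.08. Fibroblasts, 34 and 68 barcodes, had 260.04 and 258 CPM of GTPases (-0.01, -0.33 to 0.31). Of 17 fibroblast members past the filter 4 were lower (21% of all genes) and 6 higher (31.4%), with a median of 0.31 beside 0.19. Endothelial cells, 36 and 21 barcodes, had 868 CPM in Tc1 and 1497 CPM in Tc9 (0.79, 0.54 to 1.02), with 3 of 25 members lower (30% of all genes) and 12 higher (26.7%), and a median of 0.56 beside -0.01. Iigp1 in endothelial cells had 159 and 360 CPM (1.18), Gbp4 40.7 and 279 CPM (2.78), Igtp 37.1 and 132 CPM (1.83) and Ubd 19.5 and 161 CPM (3.05). In the whole stromal gate of Tc9 1 barcode held 36.4% of the 22 Ubd UMIs, 1 held 47.6% of the 42 Gbp4 UMIs and 1 held 50% of the 22 Igtp UMIs. Endothelial GTPases were thus higher in the 21 barcodes of the Tc9 library, the reverse of the CD4 and CD8 gates. In the whole stromal gate the GTPase ratio was -0.13 (-0.32 to 0.06), and -0.62 without barcodes that held a haemoglobin UMI. Irf8 was at 123 and 5.55 CPM in the stromal gate, but 118 of its 152 UMIs in Tc1 came from 4 barcodes that held Siglech, a gene of plasmacytoid dendritic cells. Over the settings that gave a value, among them 1 without the Siglech barcodes, the stromal ratio of Irf8 ran from -5.20 to -2.31. In Tc1 Irf8 stood at 269 CPM in the endothelial and 0 CPM in the fibroblast barcodes. The endothelial ratios were not recomputed without the Siglech barcodes.

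NK cells, 21 and 51 barcodes, left 13 members past the filter, of which 4 were lower (21.2% of all genes) and 3 higher (22.1%). Irf8 had 956 CPM in Tc1 and 297 CPM in Tc9 (-1.69, -2.06 to -1.32), Ifi47 154 and 57.9 CPM (-1.41) and Irf1 185 and 89.3 CPM (-1.05), and the ratio of Irf1 was 0.26 after thinning. Serpina3g had 154 and 285 CPM (0.89, 0.19 to 1.65), and Serpina3f 0 UMIs in Tc1 and 53.1 CPM in Tc9; its log2 ratio is 1.20 with Tc1 set at the floor of 3 UMIs per library and a lower counting limit of 0.78. Of these 22 Serpina3f UMIs 40.9% sat in 1 barcode. Icam1 (108 and 67.6 CPM) and Socs3 (54 and 96.5 CPM) also passed 1.5-fold, with intervals that include 0. The dendritic gate, too small in Tc9 to compare, had 3334 CPM of the 32 genes in Tc1 and 2612 CPM in Tc9.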

How the data were processed

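Both RNA libraries were single-cell 5′ libraries of pooled tumours, and the deposited matrices hold raw UMI counts; the submitters' processing notes name Cell Ranger 7.0.0 and the build mm10/GRCm38; whether intron reads were counted is not given in the sources used here. The members, the marker lists and the pathway lists were chosen with earlier results of these data known. Every member, Ifng and up to 4 genes per pathway list with the largest CD4 gate ratio were named.

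Barcodes under 500 genes, or with over 10% mitochondrial UMIs, were dropped. T cell gates needed 2 Cd3 UMIs, the NK gate 2 of its markers and the other gates 3, and barcodes with 2 or more markers of another type were left out; no doublet caller was run and no clustering was made. Counts were summed per gate and divided by all UMIs of the gate. Total UMIs were 106053410 in Tc1 and 50713493 in Tc9. Ratios have exact conditional intervals, levels exact Poisson intervals and shares exact Clopper-Pearson intervals, all at 95% and for counting error only. Thinning drew 2000 UMIs per barcode. With 1 library per group no model was fitted and no p-value computed. The ratio computation was tested on simulated data, where unchanged genes passed 1.5-fold more often in the small Foxp3 gate than in the CD4 and CD8 gates. Python 3.11.15, numpy 2.4.6, scipy 1.17.1, pandas 2.3.3 and, for TMM factors, edgeR 4.0.16 were used. Alternatives covered scaling, filters, gates, thinning, subtraction of free RNA and groups of barcodes left out. Those on free RNA from Lyz2 and Apoe, on endothelial or fibroblast barcodes alone and on the stromal gate without Siglech barcodes were chosen after seeing the data. A pathway gene and a setting that left out a group of T cell barcodes are not reported here.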

Additional observations from a re-analysis of the deposited data

Results flagged for a closer look

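Members with ratios past 1.5-fold in opposite directions in different cell types, and intervals that exclude 0 in each, are given here as log2 ratios of Tc9 over Tc1; for each of them the difference between cell types was not tested. Gbp4 was at -0.62 in the CD4 and -0.67 in the CD8 gate and at 1.64 in the stromal gate. Gbp5 was at -1.27 in the CD4, 0.95 in the Foxp3 and -1.52 in the CD8 gate. Irgm1 was at -0.80 in the CD4 and -1.27 in the CD8 gate and at 1.23 in macrophages. Irgm2 was at -1.38 in the CD4, 0.73 in the Foxp3 and -1.42 in the CD8 gate. Socs1 was at -0.72 in the CD4 gate, 1.98 in macrophages and 1.78 in stromal cells, and Socs3 at 1.26 in the Foxp3 and -0.88 in the CD8 gate. The macrophage value of Socs1 rests on 8 UMIs in Tc9, 37.5% of them in 1 barcode. Its stromal value rests on 9 UMIs in Tc1 and 18 in Tc9. Serpina3g was at -0.91 in the CD4, -1.08 in the Foxp3 and -1.07 in the CD8 gate, and at 0.89 in NK and 1.40 in stromal cells. Ifngr2 was at -0.74 in the CD4 and 1.18 in the CD8 gate.

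Barcodes that no comparison used also held member transcripts. Kept barcodes in no gate had 2196 CPM of the 32 genes in Tc1 and 2604 CPM in Tc9. Barcodes under 500 genes had 644 CPM in Tc1 and 1166 CPM in Tc9. The genes of the first free RNA estimate stood at 307753 CPM and 53723.6 CPM in these barcodes. They lower the levels of the 32 genes there unequally. A level from a count of 3 UMIs would be 1.91 CPM in the shallower Tc1 barcodes and 15.5 CPM in those of Tc9.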

How the results depend on the processing

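Recomputing the sums and counts under each alternative gave 390 values: 300 moved by less than their counting interval or 1.5 times, and 90 moved further. Single members gave 1697 values, of which 1476 were near the reported value, 202 moved and 19 changed sign from a reported ratio of at least 1.5-fold. Sign changes of smaller reported ratios were not counted apart and lie among the other values. Irf8 in the CD8 gate, reported at -0.21, ran from -0.76 to 1.35. Of the 17 members lower in the CD4 gate 16 kept their direction and 11 their 1.5-fold difference in every setting that gave a value, and of the 17 in the CD8 gate 15 and 9; of the 8 lower in the Foxp3 gate it was 2 and 1. No paired analysis was possible because each group has 1 library, so no library could be left out either. The causes of the moves were not tested. Few barcodes limit the NK gate (21 and 51), the stromal gate (70 and 89), the Tc9 macrophages (49) and the Tc1 Foxp3 gate (103). Low depth limits the Tc9 macrophages as well.

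Values are log2 ratios of Tc9 over Tc1 for sums, or numbers of members. Except for endothelial and fibroblast barcodes, the share of all genes was not computed under the alternatives. The numbers of members there show how the counts moved and cannot be set against all genes. With TMM factors the 32 genes were at -0.059 (CD4), 0.29 (Foxp3), -0.38 (CD8), -0.26 (NK), -0.46 (macrophage) and -0.15 (stromal), and the GTPases at -0.65 (CD4), -0.062 (Foxp3) and -0.65 (macrophage). There 11 members were lower in the CD4 gate, 5 higher in NK cells, 17 lower and 4 higher in macrophages, and Serpina3g in macrophages was at -0.022. Foxp3 over CD4 GTPases were then 0.40 in Tc1 and 1.02 in Tc9. With the median ratio the 32 genes were at -0.20 (CD4), -0.31 (CD8) and -0.21 (macrophage), the GTPases at -0.79 (CD4) and -1.11 (CD8), 11 macrophage members were lower and 5 higher, and Foxp3 over CD4 was 1.07 in Tc9.

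At 2-fold 9 members were lower in the CD4 and 9 in the CD8 gate, 3 lower and 2 higher in the Foxp3 gate, 1 higher in NK cells, 2 lower and 5 higher in macrophages and 4 lower in stromal cells; Foxp3 over CD4 in Tc1 had 1 lower and 6 higher. With no level filter 9 NK members were lower, and 1 member was lower in Foxp3 over CD4 in Tc9. With 1 more marker 10 macrophage members were lower and Tgtp2 was at 0.89 there. With the higher minimum of genes per barcode macrophage Igtp was at -0.094 and Ciita at 0.034.

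After thinning the 32 genes were at -0.36 (CD4), 0.00473 (Foxp3), -0.59 (CD8) and -0.14 (stromal), Foxp3 GTPases at -0.40 and Irf1 in NK cells at 0.26; 2 NK members were lower and 1 higher, and 3 stromal members lower and 2 higher. Foxp3 over CD4 was then 0.73 in Tc1 and 1.28 in Tc9. With cells weighted equally the 32 genes were at -0.36 (CD4), -0.048 (Foxp3) and -0.53 (CD8), the GTPases at -0.35 (Foxp3) and 0.060 (stromal) and stromal Gbp3 at 0.26; Foxp3 over CD4 was 0.73 in Tc1, with 1 member lower, and 1.30 in Tc9.

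With no UMI of an excluded marker the 32 genes were at -0.39 (CD4) and -0.55 (CD8), CD4 GTPases at -1.03 and Foxp3 Tgtp2 at 0.41, with 5 Foxp3 members lower, 1 CD8 member higher and Foxp3 over CD4 at 1.41 in Tc9. Without haemoglobin barcodes the GTPases were at -0.34 (Foxp3) and -0.62 (stromal), the stromal 32 genes at -0.18, and Foxp3 over CD4 in Tc1 at 0.65 with 2 lower. Without the shared receptor chains the CD8 gate had -0.23 for the 32 genes, -0.92 for the GTPases and 0.058 for Tgtp1. Endothelial barcodes alone gave 0.51 for the 32 genes and 0.79 for the GTPases, 3 lower and 12 higher members, Gbp3 at 0.56, Tgtp1 at 0.29 and Icam1 at 0.75, and fibroblasts alone 0.17 for the 32 genes with 4 lower.

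Subtracting free RNA estimated from 8 genes took the 32 genes to -0.67 (CD4), 1.81 (Foxp3) and -1.75 (CD8), and the GTPases to -1.39 (CD4), 1.95 (Foxp3), -3.92 (CD8) and -1.17 (NK). In the Foxp3 gate 0 members were then lower and 22 higher, with Gbp9 at 0.71, Iigp1 at 1.41, Ifi47 at 1.08, Tgtp2 at 0.34, Irf8 at 1.27 and Serpina3g at 1.12. CD4 Ifngr2 was at 0.36 and CD8 Lap3 at 0.55, and Foxp3 over CD4 in Tc9 at 3.75 with 1 lower. That estimate took 89.1% of the Tc9 Foxp3 and 78.9% of the Tc9 CD8 counts for free RNA. For this estimate and the next, the free RNA profile was the sum of all kept barcodes of each library, the T cells themselves included. How much of the subtracted counts was free RNA was not tested. Estimated from Lyz2 and Apoe, the 32 genes were at -0.39 (CD4) and -1.19 (CD8), the GTPases at -1.02 (CD4) and -2.61 (CD8), and Foxp3 over CD4 in Tc9 at 1.38. This second estimate took 57.9% of the Tc9 but 3.06% of the Tc1 CD8 counts for free RNA.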
